A study of Mus musculus with 8 samples.

Results

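The genes described here are the immediate early genes Egr1, Egr2, Egr3, Nr4a1, Nr4a2, Nr4a3, Arc, Ier2 and Ier5 and the gene of the transcription factor Srf, in cultured mouse muscle stem cells. They were taken by gene symbol from an expression table of 55223 loci, in which each of the 10 has 1 row. The study asked how adult muscle stem cells respond to bone morphogenetic proteins (BMPs). Cells of wild-type C57BL/6J mice, females aged 6 to 8 weeks, were expanded on Matrigel for 2 days and then held for 6 h without serum, with 200 ng/ml of the soluble BMP receptor BMPR-IA/ALK3-Fc. They were then given 100 ng/ml of BMP4 or BMP6, or only the vehicle (4 mM HCl with 0.1% BSA), for 1 h. Poly(A) RNA was sequenced in 8 libraries, which fall into 4 groups of 2. The BMP4 libraries and their vehicle libraries came from the isolations labelled IP48 and IP54, and the BMP6 libraries and theirs from IP75 and IP77, called isolations 48, 54, 75 and 77 below. Each isolation thus holds 1 vehicle and 1 stimulated library, and the ligand cannot be told apart from the pair of isolations it was tested in. How many mice went into an isolation is not given in the sources used here.

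Immediate early genes are transcribed within minutes of a stimulus without new protein synthesis, and most of their mRNAs decay quickly. SRF binds CArG boxes in the promoters of many of them, and its ETS-family partners carry signals of the ERK kinase cascade to these promoters. The EGR proteins are zinc finger transcription factors, the NR4A proteins are orphan nuclear receptors, IER2 and IER5 are related regulatory proteins, and ARC is a cytoskeleton-associated protein best known from synapses. In muscle, isolating and plating stem cells is itself known to switch on immediate early genes.

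At the level of all 4 isolations the genes did not act as one group. Arc was higher in the stimulated library of every isolation, 8.66-fold and 15-fold with BMP4 and 2.08-fold and 3.09-fold with BMP6. Ier5 was 1.76-fold and 1.74-fold higher with BMP4 and within 3% of its vehicle with BMP6. Egr1, Egr2 and Ier2 were higher with BMP4 in isolation 48 and lower in isolation 54, where the vehicle library already held high levels of all 3. Srf differed by less than 4% between stimulated and vehicle library in each isolation. These levels are TPM, the share of a transcript among all transcripts of a library, which corrects for transcript length and library size.

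**Figure D1:**
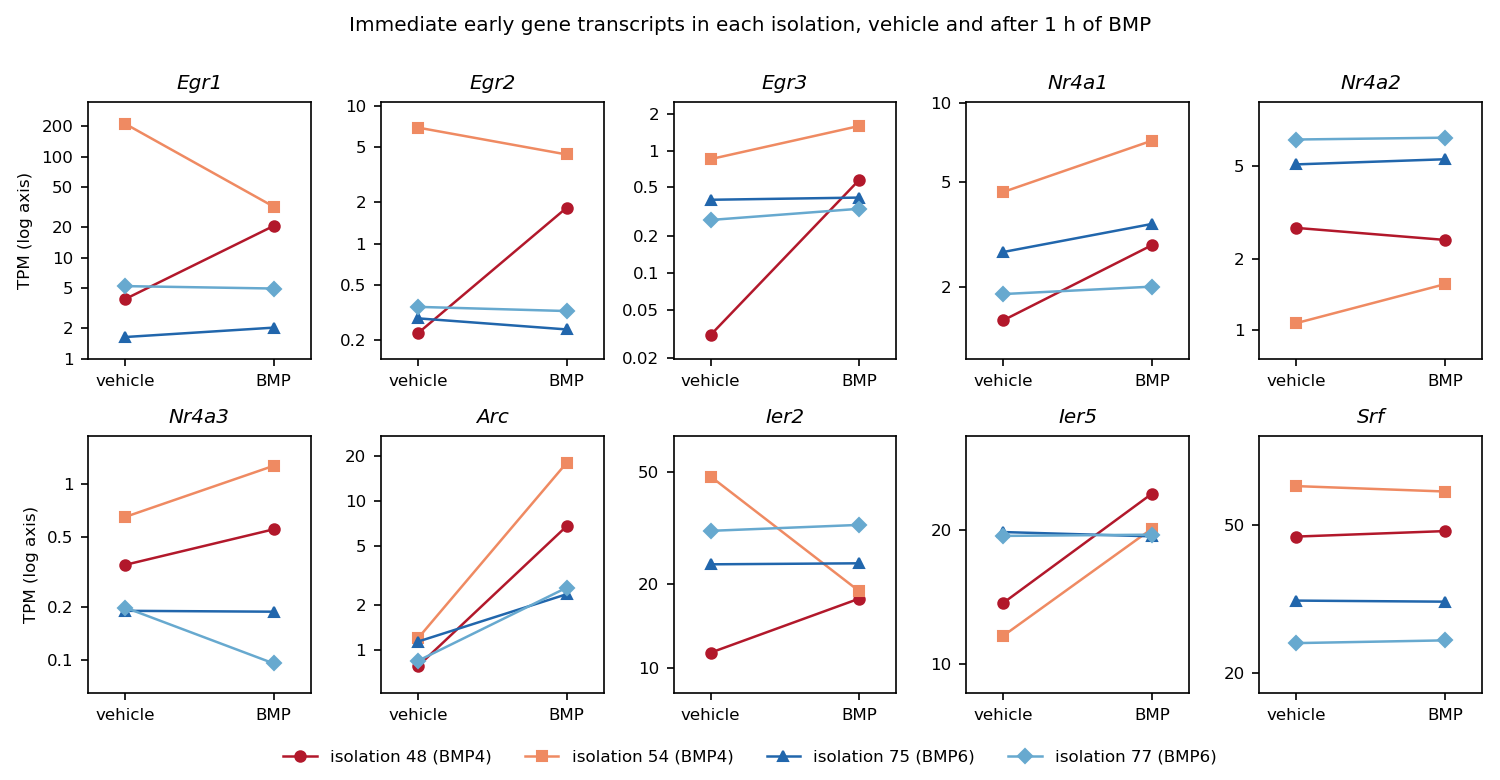
Level of each of the 10 genes in TPM (log axis, a scale of its own for each gene) in the vehicle library and the BMP library of each isolation, joined by a line; red and orange stand for isolations 48 and 54 (BMP4), dark and light blue for isolations 75 and 77 (BMP6). The lines of Arc rise in all 4 isolations, those of Egr1, Egr2 and Ier2 rise in isolation 48 and fall in isolation 54, and those of Srf are level.

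The libraries held between 48012828 and 58002740 estimated reads. Muscle stem cell and myoblast markers summed to between 1390 and 5065 TPM, and all 12 of them reached at least 1 TPM in some library. Of the endothelial markers Tie1 and Emcn were at 0 in every library, of the immune markers Ptprc, Adgre1 and Tyrobp, and of the neuronal markers Rbfox3 and Snap25. Under 1 TPM in every library were 7 of the 8 endothelial, 5 of the 8 immune and 3 of the 7 neuronal markers. Others were detected, such as Egfl7 (1.9 to 3.48 TPM), Itgam (10.9 to 17.1 TPM) and Elavl3 (4.93 to 7.39 TPM) of these lists. The 8 fibroblast markers summed to between 171 and 321 TPM in isolations 48 and 54 and to between 57.6 and 70.3 TPM in isolations 75 and 77, although the defining markers Pdgfra and Dcn stayed below 1 TPM. Col1a1, one of them, was at 13.8 TPM in the vehicle library of isolation 48 and at 70.2 TPM in that of isolation 54. In bulk RNA, fewer cells of a type and less RNA per cell cannot be told apart.

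Changes below are differences in log2(TPM + 0.5), so they understate changes of weakly expressed genes. Comparisons between groups were made with limma across the 16908 loci that averaged 0.5 TPM or more, two-sided, with a call at an adjusted p under 0.05. Of the 10 genes 9 were among these loci, and Nr4a3 was not. With 2 libraries per group, the p-values reflect no more than the scatter of these few libraries. For BMP4 against its vehicle 0 of the 9 genes passed, where 0.0237% of all loci did. With BMP6 it was 0 of 9 against 0.0118% of loci, and for the mean of both changes 0 of 9 against 0.071%. When the fit also held the isolation as a block, which compares each stimulated library with the vehicle library of its own isolation, 2 of the 9 genes rose with BMP4, Arc and Ier5, where 0.633% of loci passed. The same 2 passed for the mean of both changes (0.674% of loci), and 0 of 9 passed for BMP6 (0.148% of loci). At an unadjusted p under 0.05 without the block, 560 loci passed for BMP4 and 213 for BMP6.

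Srf encodes the regulator that many of the other genes share. Its level was 46.5 TPM with vehicle and 48.1 TPM with BMP4 in isolation 48, and 63.5 and 61.4 TPM in isolation 54. In isolation 75 it was 31.3 TPM with vehicle and 31.1 TPM with BMP6, and in isolation 77 it was 24.1 and 24.5 TPM. Libraries of one isolation lay close together, and the isolations lay apart. The change was 0.00 on the log2 scale with BMP4 (SE 0.23, or 0.04 with the block) and 0.01 with BMP6 (SE 0.23, or 0.04 with the block). Srf lies at chr17:46859255-46867101 on the minus strand of GRCm39, and its locus overlaps that of the microRNA gene Mir6976, which had at most 3.38 TPM.

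Promoter sequence from RefSeq (GRCm38.p6, windows from 250 bases before to 50 bases after an annotated start) was used for 6 of the 10 genes. These were Egr2, Ier5, Nr4a1, Nr4a2, Nr4a3 and Srf. Egr1, Egr3, Arc and Ier2 were not among them, so motifs in their promoters were not assessed. Both strands were searched for the CArG box, for GGCGCC, the core of sites known for SMAD proteins of the BMP branch, and for TGACG, the core of the cAMP response element. A CArG box was found in the Srf window, which holds 2, and in 4 of the 5 windows of Egr2, while 1.63% of all 32851 promoter windows hold one. The 4 Egr2 windows hold 2 distinct boxes, since 3 of them overlap and share the box shown here. GGCGCC was found in the windows of Nr4a1 and Nr4a2 and in 11.9% of all windows, and TGACG in windows of Egr2, Nr4a1, Nr4a2, Nr4a3 and Srf and in 20.8% of all. The Ier5 window held none of the 3. The 150 bases before the start are shown for Srf, for 1 of the Egr2 starts and for Nr4a1. Of the 6 genes, Srf and Egr2 held CArG boxes. The CArG boxes of Srf and Egr2 and the GGCGCC of Nr4a1 are in capitals. A match describes these letters and does not show a bound site.
Srf, chr17:46556163-46556312, minus strand: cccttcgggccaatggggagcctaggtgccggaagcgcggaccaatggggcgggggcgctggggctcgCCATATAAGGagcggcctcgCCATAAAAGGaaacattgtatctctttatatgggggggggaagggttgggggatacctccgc
Egr2, chr10:67537719-67537868, plus strand: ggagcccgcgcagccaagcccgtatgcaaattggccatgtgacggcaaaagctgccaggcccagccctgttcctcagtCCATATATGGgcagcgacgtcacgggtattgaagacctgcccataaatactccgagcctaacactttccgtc
Nr4a1, chr15:101266696-101266845, plus strand: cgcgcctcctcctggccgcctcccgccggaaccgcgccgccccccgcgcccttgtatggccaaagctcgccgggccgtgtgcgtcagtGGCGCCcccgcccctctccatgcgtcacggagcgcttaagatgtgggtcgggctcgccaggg

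The Srf boxes start 82 and 62 bases before the annotated start, that of Egr2 shown here starts 72 bases before it, and the GGCGCC of Nr4a1 starts 62 bases before it. Egr2, which also drives Schwann cell myelination, was at 0.224 TPM with vehicle and 1.82 TPM with BMP4 in isolation 48. In isolation 54 it stood at 6.97 TPM with vehicle and 4.45 TPM with BMP4. The 4 libraries of isolations 75 and 77 lay between 0.238 and 0.348 TPM. The log2 change was thus 1.68 in isolation 48, -0.60 in isolation 54, -0.09 in isolation 75 and -0.04 in isolation 77. Pooled over isolations 48 and 54 it was 0.54 (SE 1.00, limma adjusted p = 1). The Egr2 locus is at chr10:67373699-67378018, plus strand, in GRCm39.

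Egr3, a close relative of Egr2, was the weakest of the 3 EGR genes in isolation 54. It was at 0.031 TPM with vehicle and 0.578 TPM with BMP4 in isolation 48, and at 0.854 and 1.6 TPM in isolation 54. In the other experiment its level was 0.396 TPM with vehicle and 0.413 TPM with BMP6 in isolation 75, and 0.271 and 0.335 TPM in isolation 77. All 4 changes pointed upwards, but the vehicle library of isolation 54 was above the BMP4 library of isolation 48, so the groups overlap. The BMP4 change was 0.83 (SE 0.50, limma adjusted p = 1, or SE 0.18 and adjusted p = 0.125 with the block). Behind the lowest value stood 5.1 estimated reads. Egr3 lies at chr14:70314652-70319999 on the plus strand.

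Egr1 is the member of the family that growth factors and stress induce in most cell types, and it had the widest range of the 10 genes. In isolation 48 it was at 3.89 TPM with vehicle and 20.6 TPM with BMP4, a 5.3-fold higher level. In isolation 54 the vehicle library held 211 TPM and the BMP4 library 31.9 TPM, so that the vehicle library was 6.6-fold higher. In isolation 75 the levels were 1.64 TPM with vehicle and 2.03 TPM with BMP6, and in isolation 77 they were 5.22 and 4.94 TPM. Both BMP4 libraries were thus within 1.55-fold of each other, and it was the vehicle libraries that lay 54.2-fold apart. Among all tested loci the change in isolation 48 stood at the 99.88th percentile and that in isolation 54 at the 0.09th. Pooled, the 2 changes gave -0.22 with an SE of 1.64 (limma adjusted p = 1, or 0.935 with the block).

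The sign of the Egr1 change with BMP4 depended on which of these isolations was in the fit. With the block and without isolation 54, Egr1 rose by 2.27 with BMP4 (limma adjusted p = 0.0377). With the block and without isolation 48, it fell by 2.7 (limma adjusted p = 0.0182), and Ier2 also fell, by 1.33 (limma adjusted p = 0.0141). Each of these fits has 1 pair of libraries for BMP4 and takes its spread from the remaining isolations. Without the block none of these 3 changes passed (adjusted p = 0.958, 0.866 and 0.609).

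Ier2, at chr8:85387960-85389483 on the minus strand, followed the same split. It was at 11.4 TPM with vehicle and 17.7 TPM with BMP4 in isolation 48, and at 48.2 and 18.8 TPM in isolation 54. In isolation 75 it stood at 23.5 TPM with vehicle and 23.7 TPM with BMP6, and in isolation 77 at 30.9 and 32.4 TPM. The BMP4 libraries were 1.06-fold apart and their vehicle libraries 4.24-fold. The changes were 0.62 and -1.33 with BMP4, and 0.01 and 0.07 with BMP6.

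**Figure D2:**
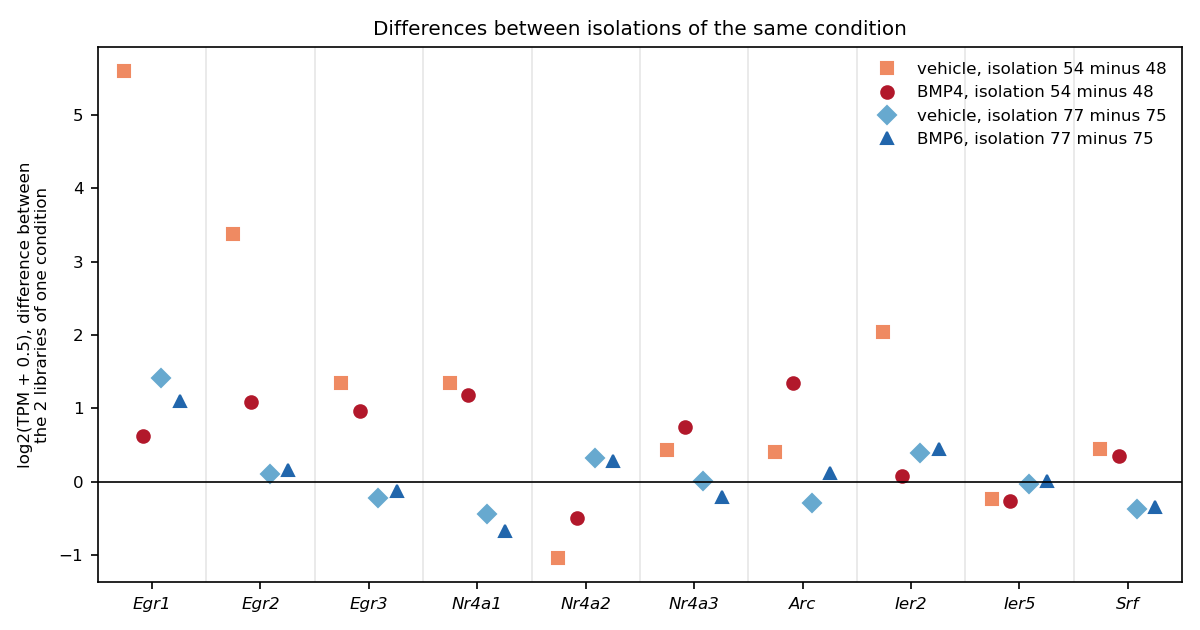
Difference in log2(TPM + 0.5) between the 2 libraries of the same condition for each gene: orange squares, vehicle of isolation 54 minus vehicle of isolation 48; red circles, the same for BMP4; light blue diamonds and dark blue triangles, isolation 77 minus isolation 75 for vehicle and BMP6. The vehicle difference reaches 5.59 for Egr1, 3.37 for Egr2 and 2.04 for Ier2, and for BMP4 those of the same genes are 0.62, 1.09 and 0.08. Nr4a1 and Arc are also more than 1 unit apart with BMP4, at 1.18 and 1.35.

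The vehicle library of isolation 54 was more than 1 log2 unit above that of isolation 48 for 5 of the 10 genes, Egr1, Egr2, Egr3, Nr4a1 and Ier2, where 4.31% of tested loci were. Nr4a2 was more than 1 unit below, as were 2.6% of loci. For the BMP4 libraries 3 of the 10 genes were that far above, with 5.18% of loci. Between the vehicle libraries of isolations 77 and 75 it was 1 gene, Egr1, with 0.609% of loci. On the same measure, the vehicle library of isolation 54 was more than 1 unit above that of isolation 48 for 9 of 40 other immediate early genes, 6 of 23 SRF and MRTF cytoskeletal targets, 3 of 12 ERK feedback genes and 0 of 12 heat shock and dissociation stress genes, and no test was made of these counts. The median vehicle differences of these lists were 0.43, 0.45, 0.09 and 0.22, and that of all loci was -0.07. The SRF and MRTF list includes Srf itself, whose own difference of 0.45 is the median of that list. Of the 40 other immediate early genes, 12 were higher with BMP4 in isolation 48 and lower in isolation 54. So were 6 of the 23 SRF and MRTF targets, 2 of the 12 ERK feedback genes, 2 of the 12 heat shock genes and 2707 of all 16908 loci. Fos, chosen here after its values were seen, changed by 0.92 in isolation 48, -2.20 in isolation 54, 0.43 in isolation 75 and 0.73 in isolation 77. Summed markers were also higher in the vehicle library of isolation 54 than in that of isolation 48 for fibroblasts (321 against 189 TPM), pericytes and smooth muscle cells (120 against 79.1 TPM), Schwann cells (24.3 against 13.2 TPM), neurons (17.9 against 11.4 TPM) and muscle stem cells and myoblasts (5065 against 4031 TPM). They were lower for immune cells (14.6 against 18.1 TPM) and endothelial cells (3.43 against 3.83 TPM). Single markers of a list went both ways. The median log2 difference of the tested markers was -0.07 for neurons and -0.05 for muscle stem cells and myoblasts. Camk2a was at 11.3 against 2.55 TPM and Myog at 2154 against 1301 TPM. Elavl3 was at 5.32 against 7.39 TPM and Myod1 at 543 against 839 TPM. In the BMP4 libraries of the same isolations, where Egr1 and Ier2 were close together, the fibroblast sums were 282 against 171 TPM, the pericyte sums 123 against 72.3 TPM and the Schwann cell sums 23.7 against 13.5 TPM. The part of these cell types in the result was not tested.

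Arc was higher in the stimulated library of all 4 isolations. It is carried at chr15:74540932-74544419 on the minus strand. In isolation 48 it was at 0.779 TPM with vehicle and 6.74 TPM with BMP4, and in isolation 54 at 1.2 and 17.9 TPM. In isolation 75 it was at 1.14 TPM with vehicle and 2.37 TPM with BMP6, and in isolation 77 at 0.847 and 2.61 TPM. The 4 vehicle libraries lay within 0.779 to 1.2 TPM, below all 4 stimulated libraries, and both BMP4 libraries were above both BMP6 libraries. Estimated reads rose from 95.1 to 792 and from 137 to 2021 with BMP4, so that counting error was small beside the change.

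With BMP4 the Arc change was 2.97 (SE 0.42, limma adjusted p = 0.238), and with the block it passed (SE 0.25, adjusted p = 0.0279). With BMP6 it was 1.01 (SE 0.42, limma adjusted p = 1, or SE 0.25 and adjusted p = 0.576 with the block). The mean of both changes was 1.99 (SE 0.30, limma adjusted p = 0.206, or SE 0.18 and 0.0263 with the block), higher in 4 of 4 isolations. The blocked BMP4 call was lost without isolation 54, 75 or 77 (limma adjusted p = 0.0506, 0.0871 and 0.0828) and was held without isolation 48 (0.0223), with changes between 2.50 and 3.44. The mean change passed with the block without isolation 48 or 54 (0.0167 and 0.0357) and not without isolation 75 or 77 (0.145 and 0.18). Without isolation 48 it also passed in the fit with no block (2.22, adjusted p = 0.0367).

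The BMP6 change of Arc minus its BMP4 change was -1.96 (SE 0.60, limma adjusted p = 1, or SE 0.35 and adjusted p = 0.261 with the block). For this difference between ligands 0 of the 9 genes passed in either fit, as did 0% of all loci, with 244 loci at an unadjusted p under 0.05 without the block and 2251 with it. A smaller response of Arc to BMP6 was therefore not shown. Arc has 2 annotated transcripts of the same start and end, and their split was not read because 50-base reads separate them poorly.

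Ier5, which is known as a partner of heat shock factor 1, lies at chr1:154972107-154975382 on the minus strand. It was at 13.8 TPM with vehicle and 24.2 TPM with BMP4 in isolation 48, and at 11.6 and 20.2 TPM in isolation 54. In isolation 75 it was at 19.8 TPM with vehicle and 19.4 TPM with BMP6, and in isolation 77 at 19.4 and 19.6 TPM. The BMP4 libraries lay above their vehicle libraries without overlap, and they were also above all 4 libraries of the BMP6 experiment. The BMP4 change was 0.78 (SE 0.14, limma adjusted p = 0.419), and in the blocked fit it passed (SE 0.05, adjusted p = 0.0143). With BMP6 it was -0.01 (SE 0.14, or 0.05 with the block). The difference between the ligands was -0.79 and did not pass (SE 0.07 and limma adjusted p = 0.162 with the block).

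The blocked BMP4 call of Ier5 was held without isolation 48 (limma adjusted p = 0.0438) and lost without isolation 54 (0.0506), 75 (0.0816) or 77 (0.077), while the change stayed between 0.77 and 0.79. The mean change over both ligands, 0.39, passed with the block (limma adjusted p = 0.0263) and in none of the 4 fits that left out an isolation (adjusted p between 0.0558 and 0.269). The changes in isolations 75 and 77 were -0.03 and 0.01, so the mean rests on isolations 48 and 54.

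**Figure D3:**
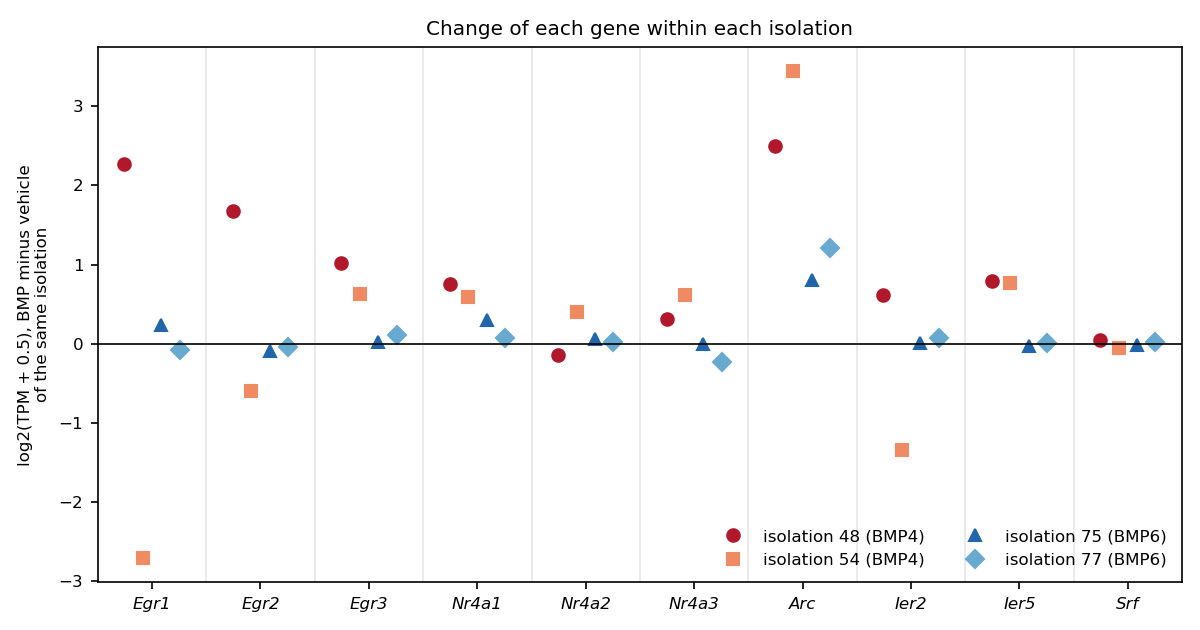
Change in log2(TPM + 0.5) of each gene, stimulated minus vehicle library of the same isolation, with 1 point per isolation (red circle 48, orange square 54, dark blue triangle 75, light blue diamond 77). Arc is above 0 in all 4, Ier5 shows nearly equal points in isolations 48 and 54 (0.79 and 0.77) and points at 0 in the others, and Egr1 spans 2.27 to -2.7.

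In isolation 48, set apart from the others, 4 of the 10 genes were more than 1 log2 unit higher with BMP4 (Egr1, Egr2, Egr3 and Arc), where 0.828% of tested loci were. That much lower were 0 of 10, with 0.674% of loci. Isolation 54 had 1 such gene, Arc, with 1.28% of loci higher, and 2 lower, Egr1 and Ier2, with 0.491% of loci. Isolation 75 had 0 in either direction, with 0.586% of loci higher and 0.408% lower. Isolation 77 had 1 higher, Arc, with 0.704% of loci, and 0 lower, with 0.361% of loci. At such small shares a count of 0 among 10 genes says little. The median change of the 9 tested genes was 0.79 in isolation 48, 0.40 in isolation 54, 0.03 in isolation 75 and 0.02 in isolation 77, beside medians over all loci of -0.03, 0.00, 0.01 and -0.01. Of the 9, 3 were higher in all 4 isolations, Egr3, Nr4a1 and Arc, as were 1385 of the 16908 loci.

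Of the NR4A receptors, Nr4a1 had the same sign in every isolation. It is also called Nur77 and lies at chr15:101152150-101172676 on the plus strand. It stood at 1.5 TPM with vehicle and 2.89 TPM with BMP4 in isolation 48, and at 4.59 and 7.19 TPM in isolation 54. In isolation 75 the levels were 2.72 TPM with vehicle and 3.47 TPM with BMP6, and in isolation 77 they were 1.88 and 2.01 TPM. The stimulated library was the higher one each time, yet the groups overlap because the isolations differ. The BMP4 change of 0.68 did not pass (SE 0.56, limma adjusted p = 1, or SE 0.11 and adjusted p = 0.0857 with the block), nor did the BMP6 change of 0.19 (SE 0.56, or 0.11 with the block, adjusted p = 1 and 0.986).

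Nr4a1 has a longer annotated transcript with 2 upstream exons of its own and a shorter one that starts at 101164727. The deposited transcript estimates gave the shorter one 0.055 and 1.78 TPM in the vehicle and BMP4 libraries of isolation 48, and 3.04 and 6.35 TPM in isolation 54. The longer one was between 0.838 and 1.96 TPM in all 8 libraries. Coverage of the first exon of the shorter transcript, which the longer one lacks, was 0.722 and 1.62 reads per base in isolation 48 and 4.05 and 5.48 in isolation 54. The first exon of the longer transcript was also more covered with BMP4 in isolation 54, at 6.67 against 1.87 reads per base, while the estimate of that transcript was lower, so the split between the 2 transcripts is uncertain. The locus overlaps a gene model without a symbol that reached 0.573 TPM.

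Nr4a2, also called Nurr1, differed between the experiments more than with stimulation. Its level was 2.72 TPM with vehicle and 2.42 TPM with BMP4 in isolation 48, and 1.07 and 1.57 TPM in isolation 54. In isolation 75 it was 5.07 TPM with vehicle and 5.33 TPM with BMP6, and in isolation 77 it was 6.47 and 6.59 TPM. All 4 libraries of isolations 75 and 77 were above all 4 of isolations 48 and 54. The changes within isolations were -0.14, 0.40, 0.07 and 0.02. Nr4a2 is carried at chr2:56996842-57014015 on the minus strand.

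Nr4a3, or Nor1, at chr4:48045153-48086445 on the plus strand, was the least expressed of the 3 receptors and fell below the filter. It was at 0.347 TPM with vehicle and 0.553 TPM with BMP4 in isolation 48, and at 0.649 and 1.27 TPM in isolation 54. In isolation 75 it was at 0.191 TPM with vehicle and 0.189 TPM with BMP6, and in isolation 77 at 0.199 and 0.096 TPM, the last from 19.6 estimated reads. In a fit without the filter its BMP4 change was 0.47 (SE 0.28, limma adjusted p = 1) and its BMP6 change -0.12 (SE 0.28, limma adjusted p = 1).

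Unstimulated levels of the 2 experiments were set side by side through their vehicle libraries. In this comparison 3 of the 9 genes passed, where 27.2% of all loci did, a share that leaves little to read from the 3. Relative to isolations 48 and 54, the vehicle libraries of isolations 75 and 77 were higher in Nr4a2 by 1.47 (SE 0.36, limma adjusted p = 0.0324) and in Ier5 by 0.62 (SE 0.14, adjusted p = 0.026). They were lower in Srf, with a difference of -0.97 (SE 0.23, limma adjusted p = 0.0291). For Egr1 the difference was -3.12 (SE 1.64, limma adjusted p = 0.184), and without the vehicle library of isolation 48 it passed (-5.92, adjusted p = 0.0172). All 3 calls were lost when the vehicle library of isolation 54, 75 or 77 or a BMP6 library was left out (limma adjusted p between 0.0527 and 0.167). The experiments also differed in the summed muscle stem cell and myoblast markers, at 3633 to 5065 TPM in isolations 48 and 54 and 1390 to 1890 TPM in isolations 75 and 77, and in those of pericytes and smooth muscle cells, at 72.3 to 123 against 23 to 33.7 TPM. The differentiation gene Myog, one of the muscle markers, was at 1204 to 2154 TPM in isolations 48 and 54 and at 110 to 145 TPM in the others. Some muscle markers went against the sum. In vehicle libraries Sdc4 was at 8.65 and 4.69 TPM in isolations 48 and 54 and at 55.2 and 68.2 TPM in the others. Myf5 was at 52.3 and 38.2 against 94 and 86.4 TPM in the same order. Isolation, experiment, these sums and the fibroblast sum differ together and cannot be told apart.

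Ranked by their mean over the 8 libraries, levels per length ran from Nr4a3, below 0.5 TPM, to Srf, between 24.1 and 63.5 TPM. Egr1 had a wider range than Srf, from 1.64 to 211 TPM, and Ier2 (11.4 to 48.2 TPM) and Ier5 (11.6 to 24.2 TPM) overlapped each other. Arc, Nr4a1, Nr4a2 and Egr2 overlapped as well, all between 0.224 and 17.9 TPM, and Egr3 and Nr4a3 overlapped below 1.6 TPM. Across the 8 libraries, as a description over libraries that share isolations, Egr1 and Egr2 went together with a Pearson r of 0.96, as did Egr3 and Nr4a1 (0.96), while Nr4a2 and Srf went against each other (-0.99).

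Among the 10234 loci with 1 name that averaged 5 TPM or more, those most like each gene over the 8 libraries were also listed, by Pearson r of log2(TPM + 0.5), with 10233 candidates where the gene itself was among them. For Arc these were Spsb1 (0.97), Insyn1 (0.96) and Kctd11 (0.95). Spsb1, which codes for a SOCS-box protein, went from 3.05 to 20.1 TPM and from 6.65 to 30.9 TPM with BMP4, and from 3.74 to 6.04 and from 4.21 to 7.93 TPM with BMP6. Egr1 was most like Atrn (1.00), Dnttip1 (0.98) and Gm15027 (0.96), yet Atrn varied only between 9.77 and 11.8 TPM. Ier5 was nearest to Erbin (0.95), Nucks1 (0.94) and Gm15057 (0.93), and Nr4a1 to Rad21 (0.99), Rab6a (0.99) and Eif2a (0.96). Ier2 had the lowest likeness, to Zfp292 (0.88), Manbal (0.85) and AY036118 (0.85). The remaining 4 tested genes had r values between 0.96 and 1.00, Egr2 with Dnttip1, Egr3 with Rab6a, Nr4a2 with Gm10074 and Srf with Epb41l3 as the nearest.

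Relatives and partners of these genes were compared in the same fits. Of 11 tested, 0 passed without the block and 1 rose with it for BMP4 (beside the 0.633% of all loci), Fhl2, a LIM-domain cofactor, by 0.58 (SE 0.06, limma adjusted p = 0.0407, and 1 without the block). Their median change was 0.12 with BMP4 and 0.05 with BMP6. Ier5l, the paralogue of Ier5, did not pass but was higher in all 4 isolations, going from 10.4 to 21.2 TPM and from 4.29 to 28.6 TPM with BMP4, and from 7.13 to 18.2 and from 7.52 to 17.1 TPM with BMP6. Its changes were 1.80 with BMP4 (SE 0.36, limma adjusted p = 0.552, or 0.12 with the block) and 1.21 with BMP6 (SE 0.36, adjusted p = 1, or 0.728 with the block), so that it did not share the level values of Ier5 with BMP6. Nab2, a co-repressor that EGR proteins induce and that binds them, was at 11 TPM with vehicle and 39.6 TPM with BMP4 in isolation 54, and at 13.5 and 14.7 TPM in isolation 48. Ier3 was at 3.03 and 12.4 TPM in isolation 48 and at 8.92 and 13.4 TPM in isolation 54.

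Of 40 other immediate early genes 10 rose with BMP4 in the blocked fit and 0 fell, where 0.633% of all loci passed. With BMP6 2 rose, Junb and Gadd45b, where 0.148% of loci passed. Without the block it was 1 for BMP4, Gadd45b, and 0 for BMP6 (0.0237% and 0.0118% of loci). Junb, an AP-1 subunit, rose by 1.42 with BMP4 (SE 0.04, limma adjusted p = 0.00326 with the block, 0.152 without) and by 1.00 with BMP6 (SE 0.04, adjusted p = 0.0121 with the block, 0.613 without). The list also holds Bhlhe40, a transcriptional repressor, which rose with BMP4 by 2.16 (SE 0.08, limma adjusted p = 0.00326 with the block, 0.0975 without), and Mafk, a small MAF protein, which rose by 1.99 (SE 0.17, adjusted p = 0.0299 with the block, 0.197 without). Fosl1, Maff, Zfp36l2, Dusp2, Nfil3 and Mcl1 rose in that fit by between 0.42 and 1.44. For the mean of both ligands 11 rose with the block, where 0.674% of loci passed. This added Klf10 (2.21, limma adjusted p = 0.0357) and Gadd45g (0.47, adjusted p = 0.0446) and left out Mcl1. The median of the list was 0.38 with BMP4 and 0.11 with BMP6. In all 4 isolations 18 of the 40 were higher, as were 1385 of the 16908 loci.

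Genes of pathways known to act on immediate early promoters were set beside these. Of 12 ERK feedback genes 1 rose with BMP4 in the blocked fit (0.633% of all loci passed) and 0 with BMP6 (0.148% of loci). The 1 was the phosphatase gene Dusp5 (1.2, SE 0.11, limma adjusted p = 0.0312, and 1 without the block). The median change of the 12 was 0.50 with BMP4 and -0.03 with BMP6. Spry2, an inhibitor of receptor tyrosine kinase signalling, was at 12.2 and 28.2 TPM in isolation 48 and at 15.2 and 25.4 TPM in isolation 54, and did not pass (limma adjusted p = 0.0613 with the block). Of 23 SRF and MRTF cytoskeletal targets, Srf itself included, 0 passed in either fit, with medians of -0.02 and 0.03. Ccn2, a matrix protein gene among them, was at 2.69 and 16.5 TPM in isolation 48 and at 26.6 and 34.9 TPM in isolation 54, so its vehicle library of isolation 54 was also the higher one.

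Of 13 cAMP and CREB responsive genes 2 rose with BMP4 in the blocked fit, Sik1 and Nfil3, where 0.633% of all loci passed. Nfil3, like Fosb and Per1, is also on the list of other immediate early genes, and its rise was already counted there. With BMP6 it was 1, Sik1, where 0.148% of loci passed. Sik1, a salt-inducible kinase gene, rose by 0.98 with BMP4 (SE 0.06, limma adjusted p = 0.0159) and by 1.53 with BMP6 (SE 0.06, adjusted p = 0.0121), and without the block neither passed (adjusted p = 1 and 0.723). Of 10 genes regulated by neuronal activity, the group in which Arc is best known, only 4 were expressed enough to be tested and 0 passed. Homer1 went from 16.5 to 18.7 and from 20.5 to 21.4 TPM with BMP4. Of 12 heat shock and dissociation stress genes 0 passed for either ligand. Bag3 rose for the mean of both with the block (0.28, SE 0.03, limma adjusted p = 0.0446, and 1 without), where 0.674% of loci passed.

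Known BMP and SMAD target genes were higher with both ligands. The list was chosen with earlier results of these data known, so its counts and medians are not an independent yardstick. Of 16, 9 rose with BMP4 and 7 with BMP6 in the blocked fit, 2 and 1 without the block, and their medians were 1.49 and 1.69. Over all loci 0.633% and 0.148% passed in the blocked fit, and 0.0237% and 0.0118% without the block. Smad7, an inhibitory SMAD, rose by 3.02 with BMP4 (SE 0.10, limma adjusted p = 0.00326 with the block) and by 2.35 with BMP6 (SE 0.10, adjusted p = 0.0121 with the block). Their changes had medians of 1.31, 1.34, 1.54 and 1.63 in isolations 48, 54, 75 and 77. The 9 immediate early genes had 0.79, 0.40, 0.03 and 0.02 in the same order, and Arc changed by 2.50, 3.44, 0.81 and 1.21.

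**Figure D4:**
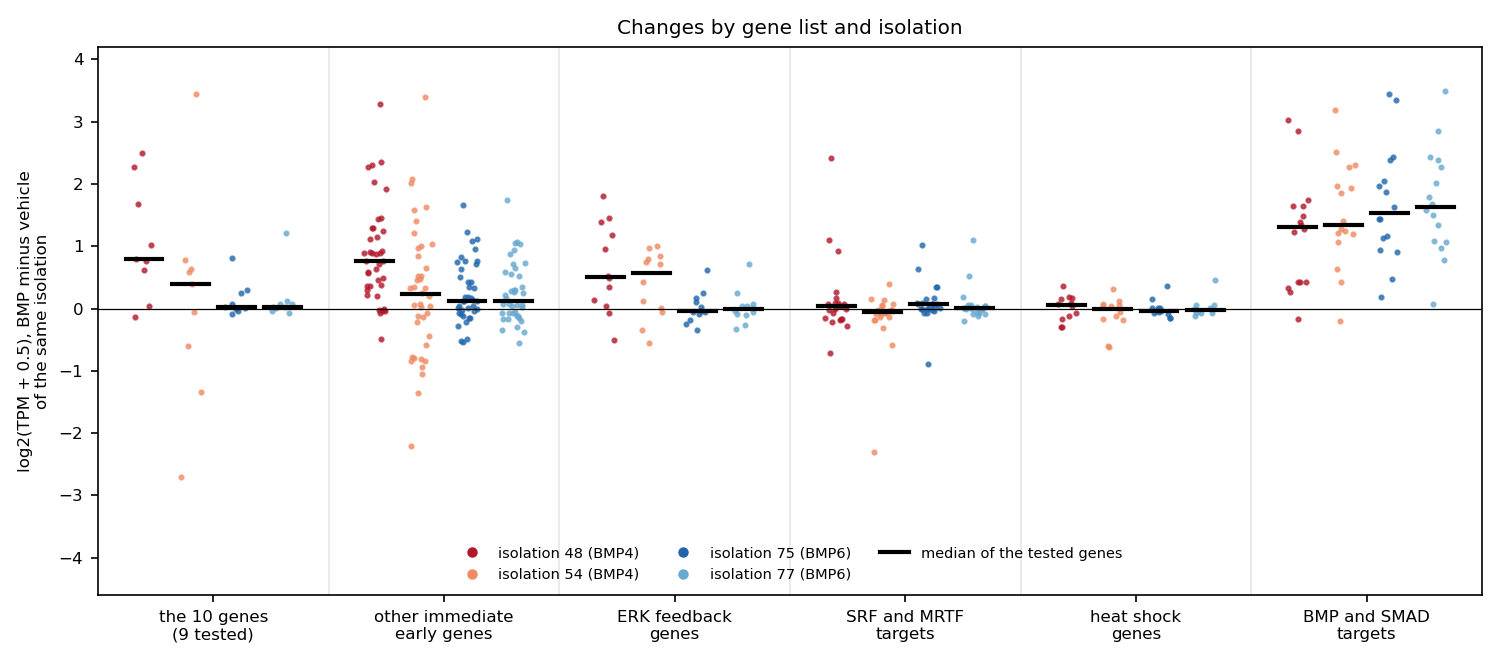
Change in log2(TPM + 0.5) of each tested gene, stimulated minus vehicle library of the same isolation, by gene list and isolation (colours as labelled), with the median of each list as a black bar. Medians of the BMP and SMAD targets lie between 1.31 and 1.63 in all 4 isolations, and those of the 9 immediate early genes described here go from 0.79 in isolation 48 to 0.02 in isolation 77. Srf is plotted both among the genes described here and among the SRF and MRTF targets.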

How the data were processed

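Reads of 50 bases, single-end, came from strand-specific libraries made from 500 ng RNA each, per the labels' protocols. The submitters' processing notes name STAR 2.7.11a, SAMtools 1.17, StringTie 2.2.1 and GRCm39, and per the file headers StringTie ran without a strand option, so overlapping genes may share reads. The authors deposited TPM per locus, the unit used here, with FPKM as an alternative. Transcript tables give coverage signal as deposited by the authors, from which estimated reads were computed as coverage times length over 50. All 55223 rows of the joined TPM table lay within 1e-05 of the library's own table.

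Values of log2(TPM + 0.5) for loci averaging 0.5 TPM or more were modelled in limma 3.58.1 (R 4.3.3) by their 4 groups, with a variance trend, and p-values were adjusted by Benjamini-Hochberg over all 16908. Isolation as a replicate block was the main alternative. Vehicle and stimulated library of an isolation carry the same isolation label, and their deviations from the group means correlated (r = 0.71 in the BMP4 and 0.45 in the BMP6 experiment). Only the fit with the isolation block was tested on simulated data. Other alternatives were pseudocounts of 0.1 and 2, no filter or one at 5 TPM, FPKM, median-of-ratios scaling, voom on estimated reads, each experiment alone, and leaving out each library or isolation. Leaving out isolation 48 or 54 without the block was chosen after seeing the data. No paired fit exists for vehicle against vehicle.

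The genes and lists were chosen with earlier results of these data known. From each list, genes that passed for BMP4, BMP6 or their mean with or without the block, or with the 3 largest mean changes, could be named. Likeness was ranked by Pearson r over the 8 libraries, with the first 3 loci kept. Promoter windows are from RefSeq (GRCm38.p6) and gene positions from the files (GRCm39), and no coordinates were carried between builds.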

Additional observations from a re-analysis of the deposited data

Results flagged for a closer look

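The changes of Nr4a3 had opposite signs with the 2 ligands. Its change was 0.31 and 0.62 on the log2 scale in isolations 48 and 54 with BMP4 and -0.0046 and -0.23 in isolations 75 and 77 with BMP6. The mean BMP6 change minus the mean BMP4 change was -0.58. Nr4a3 lay below the expression filter, so the difference was not tested in the fit that the report uses, and without the filter it did not pass (SE 0.39, limma adjusted p = 1). All 4 libraries of isolations 75 and 77 were at 0.199 TPM or less.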

How the results depend on the processing

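The replicate block by isolation raised the number of loci called from 4 to 107 for BMP4, from 2 to 25 for BMP6 and from 12 to 114 for their mean, and the genes described here from 0 to 2 for BMP4 and from 0 to 2 for the mean. It changed no other call of these 9 genes. With no filter the loci called were 8 for BMP4, 12 for BMP6, 7 for the mean, 1 for the difference between ligands and 2490 for the vehicle comparison, in which 1 of the genes then passed. FPKM gave 2 loci for BMP4, and each experiment alone gave 0 for BMP4 and 12 for BMP6. For BMP6 both a filter at 5 TPM, which keeps fewer loci, and a pseudocount of 2 gave 0. The cause of these shifts was not tested.

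Leaving out 1 library or isolation at a time, in fits with the block and without it, calls over all loci ran from 0 to 145 for the BMP4 change, 0 to 49 for the BMP6 change, 0 to 16 for the difference between ligands, 0 to 192 for the mean change and 5 to 8218 for the vehicle difference. The number of the 9 genes called ran from 0 to 4 for the BMP4 change, 0 to 3 for the mean change and 0 to 6 for the vehicle difference. Log2 changes that changed sign in such a fit had these ranges. The vehicle difference ran from -0.19 to 0.22 for Arc, -3.19 to 0.17 for Egr2, -0.70 to 0.65 for Egr3, -0.83 to 1.21 for Ier2 and -0.88 to 0.47 for Nr4a1. The BMP4 change ran from -3.01 to 2.58 for Egr1, -1.14 to 2.23 for Egr2, -1.38 to 0.66 for Ier2, -0.39 to 0.65 for Nr4a2 and -0.22 to 0.22 for Srf. The BMP6 change ran from -0.62 to 0.80 for Egr1, -0.15 to 0.0132 for Egr2, -0.0382 to 0.18 for Egr3, -0.18 to 0.26 for Ier2, -0.0313 to 0.0091 for Ier5, -0.14 to 0.52 for Nr4a1, -0.12 to 0.21 for Nr4a2 and -0.18 to 0.19 for Srf. The difference between ligands ran from -2.49 to 3.10 for Egr1, -2.29 to 1.07 for Egr2, -0.62 to 1.42 for Ier2, -1.16 to 0.19 for Nr4a1, -0.60 to 0.44 for Nr4a2 and -0.22 to 0.23 for Srf. The mean change ran from -1.46 to 1.33 for Egr1, -0.60 to 1.08 for Egr2, -0.67 to 0.35 for Ier2, -0.17 to 0.35 for Nr4a2 and -0.11 to 0.12 for Srf.

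Signs also turned where a change was near 0 in the report's fit without the block. The shift of Egr3 with voom was large, from a vehicle difference of -0.03 in that fit. Egr1 had a mean change of 0.0036 with voom, Egr3 a vehicle difference of 0.28 with a pseudocount of 0.1 and of 1.04 with voom, Srf a BMP4 change of -0.0017 in FPKM, and Srf a difference between ligands of -0.0093 with median-of-ratios scaling and -0.0049 with voom. Depth limits Egr3 and Nr4a3 most, with as few as 5.1 and 19.6 estimated reads in a library.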
